A study of Mus musculus with 84 samples.

Results

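The uncoupling proteins Ucp1, Ucp2 and Ucp3 and the thermogenic regulators Dio2, Adrb3, Prdm16 and Otop1 were followed through both tissues, both compounds and all doses of the series. These 7 genes were chosen by name and were read by 9 probes, out of 28599 gene names and 41174 probes on the array. All mice were young adult male db/db mice of the strain BKS Cg-m+/+ Leprdb/J, which carry a defective leptin receptor and become obese and diabetic, and no nondiabetic animal was analysed here. In each tissue, inguinal adipose tissue (IAT) or liver, 36 mice had been dosed by mouth for 18 days with rosiglitazone (RSG), a thiazolidinedione that activates the nuclear receptor PPARγ, at 28, 84 or 280 µmol/kg, or with matching molar doses of a second agent that the labels call S compound. Each of these 6 groups per tissue held 6 mice, and each mouse was hybridised on 2 arrays, with the dyes exchanged, beside a single pooled RNA made from 6 untreated db/db controls for that tissue. Because that pool counts as 1 control sample, how much untreated mice vary enters none of the tests against it.

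Uncoupling proteins are carriers of the inner mitochondrial membrane. UCP1 lets protons return to the matrix without making ATP, which releases heat, and it marks brown adipocytes and the beige adipocytes that arise in subcutaneous depots such as IAT. UCP2 is found in many tissues and UCP3 mainly in skeletal muscle and brown fat, and their roles are less settled. Among the regulators, ADRB3 is the adrenergic receptor through which noradrenaline reaches adipocytes, and it raises cAMP. DIO2 is the deiodinase that turns thyroxine into the active thyroid hormone inside the cell. PRDM16 is a zinc finger co-regulator of brown and beige adipocyte identity, and OTOP1 is a proton channel first known from the inner ear.

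Because rosiglitazone acts through a nuclear receptor and the brown fat programme is also driven by cAMP, the 250 bases before the start of transcription were searched on both strands for AGGTCA (the core letters that nuclear receptors bind), a direct repeat of AGGTCA with any 1 base between, TGACGTCA (the cAMP response element) and TGACG (its core, which the full element contains). RefSeq promoters of build GRCm38.p6 were matched for 6 of the 7 genes, all but Adrb3. The sequences below are those of the members with an AGGTCA or a TGACGTCA, written 5′ to 3′ on the strand of the gene with these motifs in capitals, and they lie on chr8:83290098-83290347 (Ucp1, plus strand), chr12:90739039-90739288 (Dio2, minus strand) and chr7:100472741-100472990 (Ucp3, plus strand).
Ucp1 promoter: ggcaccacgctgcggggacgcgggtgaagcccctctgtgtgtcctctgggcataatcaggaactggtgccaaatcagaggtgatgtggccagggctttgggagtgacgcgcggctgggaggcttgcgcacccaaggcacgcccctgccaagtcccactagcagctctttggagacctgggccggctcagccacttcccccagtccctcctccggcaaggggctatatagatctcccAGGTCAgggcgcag
Dio2 promoter: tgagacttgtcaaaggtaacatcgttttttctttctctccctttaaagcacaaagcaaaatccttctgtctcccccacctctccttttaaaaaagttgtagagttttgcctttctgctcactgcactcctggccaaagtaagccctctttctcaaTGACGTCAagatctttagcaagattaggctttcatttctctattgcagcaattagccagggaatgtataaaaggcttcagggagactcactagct
Ucp3 promoter: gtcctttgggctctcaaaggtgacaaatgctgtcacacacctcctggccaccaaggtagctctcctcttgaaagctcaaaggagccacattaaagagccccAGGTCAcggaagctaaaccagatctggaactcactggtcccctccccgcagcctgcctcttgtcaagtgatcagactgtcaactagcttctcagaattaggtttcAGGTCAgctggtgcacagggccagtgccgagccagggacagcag
The Ucp1 promoter held AGGTCA 14 bases before the start and a TGACG at 147 bases. The Dio2 promoter held TGACGTCA 95 bases before the start, and the Ucp3 promoter held AGGTCA at 149 and at 44 bases. Ucp2 had a TGACG on the opposite strand at 62 bases only, and Otop1 and Prdm16 had none of these letters in the window. Of 32851 promoters of the same length, 14.0% held AGGTCA, 0.0335% the direct repeat, 1.55% TGACGTCA and 17.8% TGACG, so a match describes the sequence and is no evidence of a site.

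The treated channel stood well above background for 61.8 to 78.2% of probes on the 72 IAT arrays and for 43.4 to 65.8% on the 72 liver arrays. Probes were tested if the treated channel cleared background on 50% or more of the arrays of any 1 group, or the pool channel on 50% or more of all 72 arrays of the tissue, which left 30794 probes in IAT and 25254 in liver. All 7 genes passed in IAT. In liver only Otop1, Ucp2 and Prdm16 passed. Adrb3 in IAT and Otop1 in liver passed only through treated groups, as their pool channel cleared background on 1 and 12 of 72 arrays. The filter thus favoured a call above the pool for Adrb3 in IAT and Otop1 in liver. The adipocyte markers fixed for IAT were well above background on every array for 14 of 14 genes, as were the hepatocyte markers in liver.

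The signal itself separated the tissues most for Ucp1. In IAT its processed signal had a median of 66917 in treated mice (14964 to 394094) and 13708 in the pool (9581 to 29435), and both channels were well above background on all 72 arrays. In liver the Ucp1 signal had a median of 8.5 in treated mice and 6.75 in the pool, and it was well above background on 1 of 72 arrays in the treated channel and on 0 in the pool. Adrb3 was not well above background in liver on any of the 72 arrays in either channel, Ucp3 was above it on 3 in the treated channel and 1 in the pool, and Dio2 on 19 and 30. The only fold that could be bounded for these genes was Ucp3 at 280 µmol/kg S, at least 1.14-fold above the pool with 2 of 12 arrays above background. Ucp1 was thus detected in the IAT of untreated db/db mice, and in liver Ucp1 and Adrb3 were not well above background in either channel but for that 1 array of Ucp1.

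**Figure D1:**
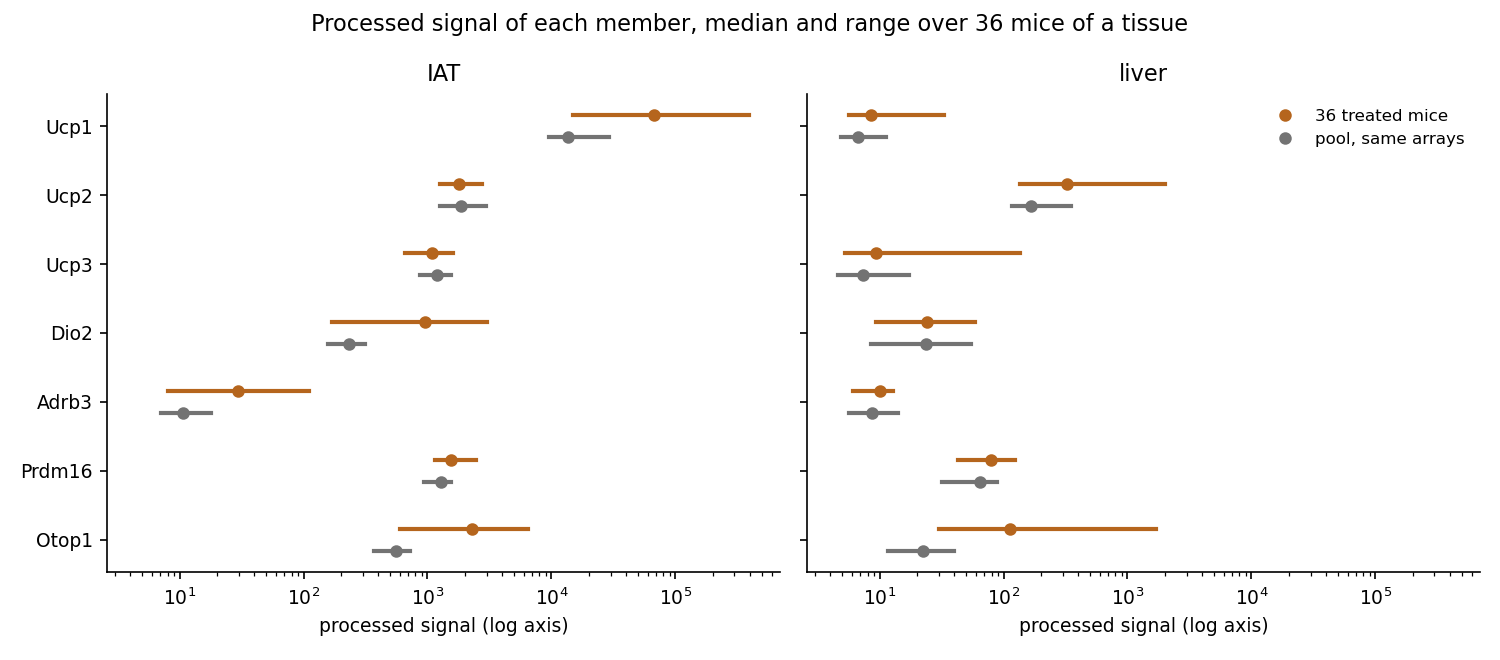
Processed signal (log axis, arbitrary scanner units) of the brightest probe of each gene in IAT and liver. Points are medians and lines run from the lowest to the highest of 36 treated mice (brown, above) and of the pool on the same arrays (grey, below); in liver the Ucp1 signal lies near 8.5 in treated mice and 6.75 in the pool, against 66917 and 13708 in IAT.

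Ucp1 rose in IAT with both compounds at every dose. In RNA of whole tissue, a change in the number of cells of a type and a change in RNA per cell cannot be told apart. With RSG at 28 µmol/kg the log2 ratio of mouse to pool was 0.64 in the lowest mouse, 1.55 at the median and 1.98 in the highest (mean 1.52 ± 0.47, SD, n = 6). At 84 µmol/kg RSG the corresponding values were 2.53, 2.83 and 3.1 (mean 2.81 ± 0.20), and at 280 µmol/kg they were 2.38, 3.42 and 3.54 (mean 3.27 ± 0.44). All 18 mice lay above the pool, and the ranges at 28 and 84 µmol/kg did not overlap. With S the lowest, median and highest mice were at 1.02, 1.19 and 1.65 at 28 µmol/kg (mean 1.23 ± 0.23), 1.76, 1.94 and 2.21 at 84 µmol/kg (mean 1.96 ± 0.18) and 3.13, 3.32 and 3.74 at 280 µmol/kg (mean 3.36 ± 0.21). The 3 S groups did not overlap with each other. These means are 2.87, 7.04 and 9.67-fold over the pool for RSG (limma, adjusted p = 1.8e-11, 1.2e-18 and 1.8e-20) and 2.34, 3.88 and 10.3-fold for S (adjusted p = 2.4e-09, 2.5e-14 and 7.4e-21). The probe lies at chr8:86187994-86188053 on the plus strand of build mm8, and it was saturated on 1 array, of S at 280 µmol/kg, so that array gives a lower limit.

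Otop1 also rose in IAT in every group. With RSG the lowest, median and highest mice were at 0.48, 1.59 and 1.93 at 28 µmol/kg, 1.84, 2.14 and 2.57 at 84 µmol/kg and 1.55, 2.85 and 3.00 at 280 µmol/kg. With S they were at 1.13, 1.41 and 1.60, then 1.42, 1.87 and 2.28, then 2.75, 2.97 and 3.18. Every mouse lay above the pool, and the S group at 280 µmol/kg overlapped with neither lower dose. The means at 280 µmol/kg were 6.30-fold over the pool for RSG (adjusted p = 5.5e-16) and 7.90-fold for S (adjusted p = 2.0e-17).

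Dio2 rose in IAT by similar amounts, with wider spread between mice and no called difference between doses. RSG means were 1.59 ± 0.73, 2.28 ± 0.35 and 1.93 ± 1.09 on the log2 scale at the 3 doses, and S means were 1.79 ± 0.37, 2.37 ± 0.74 and 2.57 ± 0.58 (n = 6 each). At 280 µmol/kg this is 3.81-fold for RSG (adjusted p = 2.8e-07) and 5.94-fold for S (adjusted p = 6.9e-10). In the RSG groups 1 mouse each stood far below the others, at 0.20 at 28 µmol/kg (the others 1.56 to 2.27) and at -0.24 at 280 µmol/kg (the others 2.00 to 2.67). The second of these, replicate 2, was also the lowest RSG mouse at that dose for Ucp1, Otop1, Adrb3 and Prdm16.

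Adrb3 was dim in IAT, and its size of change is poorly known. The pool was well above background on 1 of 72 arrays and the treated channel on 30, so each fold is a lower bound, computed from normexp-corrected levels with the undetected pool raised to the detection floor of its array. At 84 and 280 µmol/kg RSG, 8 of 12 arrays each were above background and Adrb3 was at least 1.23-fold and at least 1.24-fold higher than the pool (adjusted p of the ratio = 8.9e-09 and 1.2e-07). With S it was at least 1.03-fold higher at 84 µmol/kg (2 of 12 arrays above background, adjusted p = 2.2e-04) and at least 1.14-fold at 280 µmol/kg (8 of 12, adjusted p = 1.3e-07). At 28 µmol/kg S no array was above background in either channel and no fold is given (adjusted p = 0.086), and at 28 µmol/kg RSG the treated channel was above it on 4 of 12 arrays and the pool on 1 (adjusted p = 7.3e-04). With normexp background correction the mean log2 ratios were 0.14, 0.34 and 0.41 for RSG and 0.13, 0.12 and 0.20 for S, and the calls at 28 µmol/kg RSG and 84 µmol/kg S were lost (adjusted p = 0.10 and 0.13). The probe was designed on a splice variant of Adrb3.

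Prdm16 rose a little in IAT in all 6 groups. Log2 means were 0.35 ± 0.24, 0.29 ± 0.12 and 0.44 ± 0.27 with RSG and 0.32 ± 0.10, 0.27 ± 0.13 and 0.50 ± 0.10 with S at rising dose. These are 1.27, 1.22 and 1.35-fold for RSG and 1.25, 1.20 and 1.42-fold for S, with adjusted p between 1.4e-07 and 0.0018. Of the 36 mice, 35 lay above the pool.

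The other uncoupling proteins did not follow Ucp1 in IAT. By its brightest probe, Ucp2 had RSG means of 0.02, -0.00 and -0.07 and S means of 0.08, 0.19 and -0.05, of which only S at 84 µmol/kg passed the test (1.14-fold, adjusted p = 0.034, lost without replicate 2, 3, 4 or 5 at adjusted p of 0.052 to 0.12). The second probe was called in no group. The third and dimmest probe, which lies farthest downstream (chr7:100375063-100375122 of build mm8, plus strand, as are all probe positions here), was called in all 6 groups with means of 0.50 to 0.70 for RSG and 0.77 to 0.91 for S, so the probes disagree. It also had the largest dye difference of the 3, with values 0.47 higher on average where the treated mouse was labelled with Cy5, which the dye exchange averages out.

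Ucp3 had RSG means of -0.04 ± 0.15, -0.06 ± 0.10 and 0.09 ± 0.14 in IAT and was called at no dose. With S it was 1.24-fold lower at 84 µmol/kg (-0.31 ± 0.18, adjusted p = 3.0e-04) and 1.13-fold lower at 280 µmol/kg (-0.17 ± 0.21, adjusted p = 0.022), with 6 of 6 and 5 of 6 mice below the pool. All 6 mice at 84 µmol/kg S were scanned on 1 day, on which 2 mice at 28 µmol/kg S averaged -0.29. The mean of all 6 mice at 28 µmol/kg S was -0.11, so dose and scan day cannot be told apart in the call at 84 µmol/kg. The call at 280 µmol/kg was lost without S replicate 3 or 4 (adjusted p = 0.075 and 0.13), and it was 0.091 when only that group was fitted. Markers of skeletal muscle, which expresses Ucp3, also summed to less than in the pool at these S doses. Their summed signal in IAT was 278455 to 984724 at 84 µmol/kg S and 150830 to 661930 at 280 µmol/kg S. In the pool on the same arrays it was 1319604 to 1638650 and 1822459 to 2093237. At 280 µmol/kg RSG the sum varied widely and overlapped with the pool (158104 to 2063872, against 1390633 to 1853047). All 20 muscle markers were detected in IAT, 5 were lower at 84 µmol/kg S and 20 at 280 µmol/kg S, and 14 were lower at 280 µmol/kg RSG, where Ucp3 was not. Epithelial markers were lower too, 12 of 15 at either S dose and 8 of 15 at 280 µmol/kg RSG. At 280 µmol/kg S endothelial markers summed to 74809 to 88506, against 91746 to 112866 in the pool. Macrophage markers summed to 106745 to 214917 there, against 230623 to 268351, and lay below the pool at 280 µmol/kg RSG as well. Both sums overlapped with the pool at 84 µmol/kg S. Adipocyte markers lay above the pool at 280 µmol/kg S (1998985 to 2372408, against 1629918 to 1822472). The part of all these markers in the Ucp3 result was not tested. Ucp3 values were 0.52 lower on average where the treated mouse carried Cy5, a difference that also averages out.

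**Figure D2:**
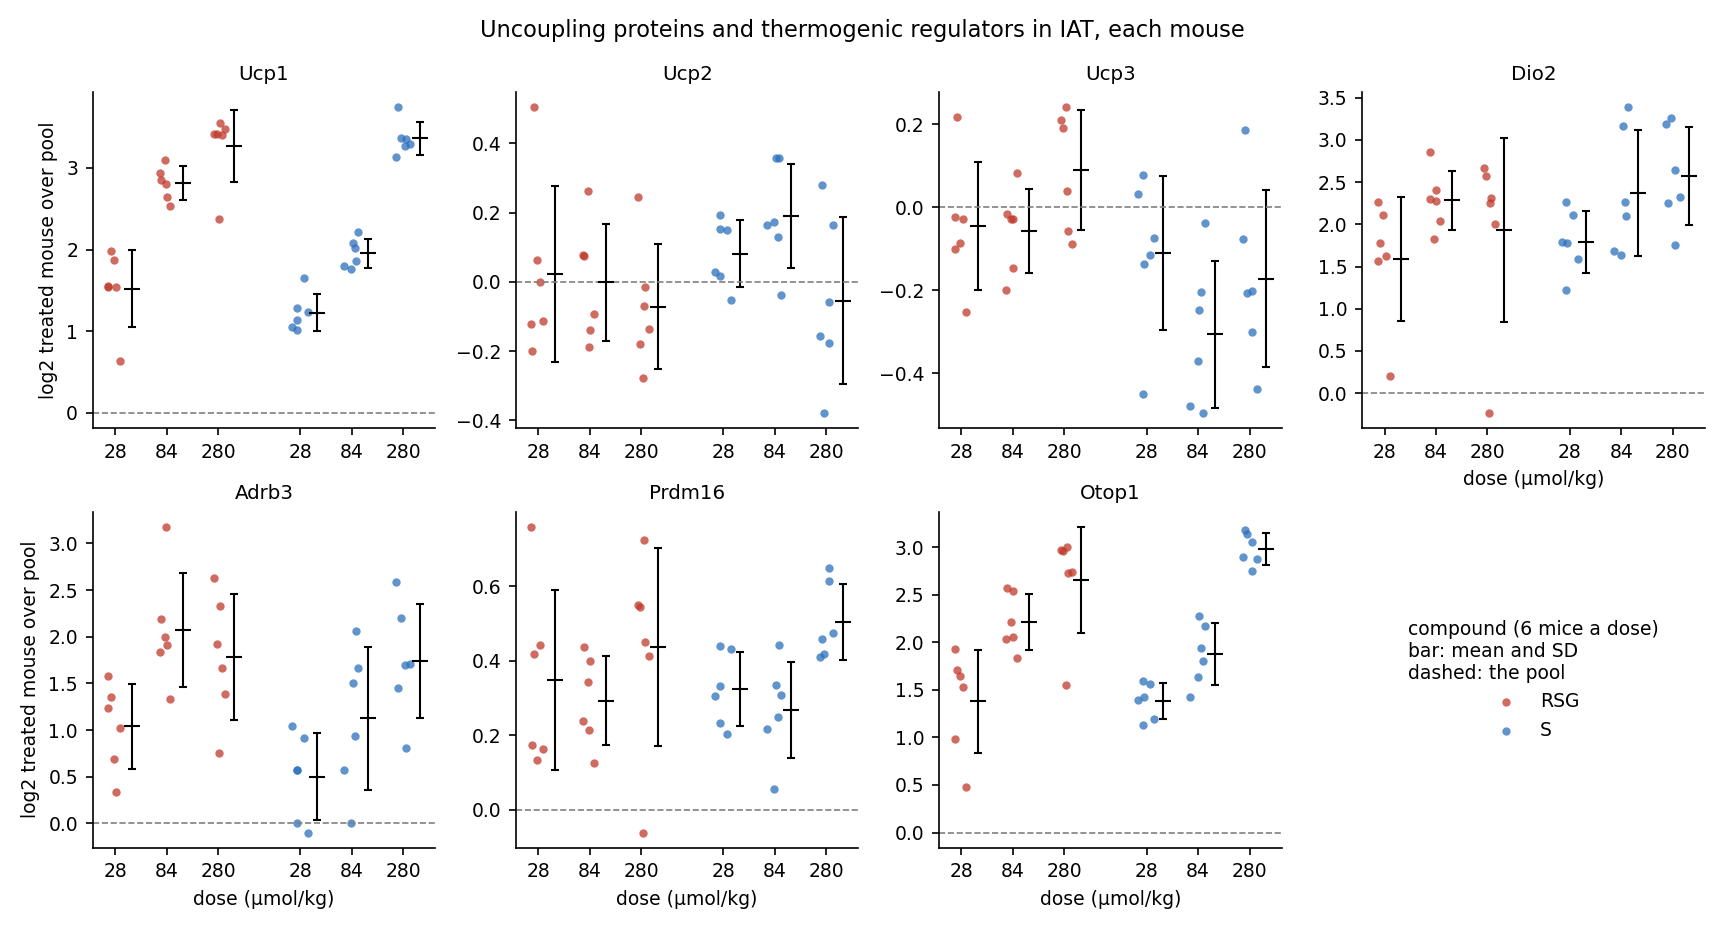
Log2 ratio of each IAT mouse to the pool (points, 6 mice a dose) for the 7 genes at 28, 84 and 280 µmol/kg of RSG (red, left) and S (blue, right), with mean and SD as bars and the pool as a dashed line at 0; each panel has its own scale. Ucp1, Otop1 and Dio2 means lie between 1.23 and 3.36, while Ucp2 and Ucp3 means lie between -0.31 and 0.19.

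Counted over the genes, 5 of 7 were called higher in IAT at each RSG dose, where 46.9, 65.6 and 67.0% of all probes were called in either direction at 28, 84 and 280 µmol/kg. With S, 4 of 7 were called at 28 µmol/kg (all higher, background 47.6%), 7 at 84 µmol/kg (6 higher and 1 lower, background 55.7%) and 6 at 280 µmol/kg (5 higher and 1 lower, background 74.7%). At 280 µmol/kg, 37.1% of all probes were called higher and 29.8% lower for RSG, and 42.7 and 32% for S. Calls against the pool were thus common over the whole array. The counts include Adrb3 except with S at 28 µmol/kg, and it had passed the filter only through the treated channel.

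Differences between doses were fewer, and the pool cancels in them. For RSG in IAT, Ucp1 was 1.29 higher on the log2 scale at 84 than at 28 µmol/kg (adjusted p = 3.5e-05) and Otop1 0.83 higher (adjusted p = 0.011), and with Adrb3 (adjusted p = 0.047) 3 of 7 genes were called, against 10.5% of probes. The Otop1 call was lost with normexp, where the difference was 0.65 (adjusted p = 0.05). No size is given for Adrb3, whose treated channel was above background on 4 of 12 arrays at 28 µmol/kg, and with normexp the difference was 0.21 (adjusted p = 0.19). The Adrb3 call was lost without any one of replicates 3, 4 and 6 at 28 µmol/kg or 1, 2, 4, 5 and 6 at 84 µmol/kg (adjusted p = 0.051 to 0.16). From 84 to 280 µmol/kg limma called 0 of 7 for RSG (2 at an unadjusted p under 0.05, background 0.305%). Ucp1 was 0.46 higher at 280 µmol/kg (95% interval 0.10 to 0.82, adjusted p = 0.29), and without replicate 2 of RSG at 280 µmol/kg it was 0.64 higher (adjusted p = 0.047). Between 280 and 28 µmol/kg RSG, Ucp1 (1.75, adjusted p = 1.5e-08) and Otop1 (1.28, adjusted p = 3.2e-05) were called, with 25.4% of probes called, and Adrb3 was not (adjusted p = 0.11), except without replicate 2 at 280 µmol/kg (adjusted p = 0.034) or with normexp (0.28, adjusted p = 0.030).

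With the S compound the calls came between the higher doses. Between 84 and 28 µmol/kg S, limma called 0 of 7 (3 at an unadjusted p under 0.05, background 0.0909%), although the Ucp1 ranges did not overlap (0.73 higher, adjusted p = 0.094). Between 280 and 84 µmol/kg S, Ucp1 was 1.40 higher (adjusted p = 5.9e-07) and Otop1 1.11 higher (adjusted p = 1.9e-04), 2 of 7 genes against 30.4% of probes. Ucp2 was 0.25 lower there (adjusted p = 0.083) and passed without S replicate 1 at 84 µmol/kg or replicate 5 at 280 µmol/kg (adjusted p = 0.047 and 0.033). Over the whole range from 28 to 280 µmol/kg S, Ucp1 was 2.13 higher (4.39-fold, adjusted p = 6.3e-11) and Otop1 1.60 higher (adjusted p = 3.4e-07). The fit also called Adrb3 (adjusted p = 0.0037), which makes 3 of 7 genes against 43.5% of probes, but at 28 µmol/kg S Adrb3 was above background on 0 of 12 arrays, so that no size is given, and with normexp the difference was 0.07 (adjusted p = 0.59). Whether the steps of the 2 compounds differ was not tested.

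RSG and S were compared in IAT at equal molar doses. The difference that passed was Ucp1 at 84 µmol/kg, where RSG stood 0.86 above S on the log2 scale (1.81-fold, 95% interval 0.50 to 1.22, adjusted p = 0.0065) and the 6 RSG mice (2.53 to 3.1) lay above all 6 S mice (1.76 to 2.21). It was 1 of 7 genes called, against 2.15% of probes, and 3 were at an unadjusted p under 0.05. No scan day held both groups, and with scan day as a fixed term the difference was 0.80 (adjusted p = 0.57). At 28 µmol/kg limma called 0 of 7 (0 at an unadjusted p under 0.05, background 0.00649%), and the Ucp1 difference was 0.29 (interval -0.06 to 0.65). At 280 µmol/kg it called 0 of 7 (1 at an unadjusted p under 0.05, background 1.57%), and the Ucp1 difference was -0.09 (interval -0.45 to 0.27). Dio2 had the widest interval of the 7 genes at each dose (-1.43 to 0.15 at 280 µmol/kg), and a difference of more than 2-fold between the compounds is within it.

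**Figure D3:**
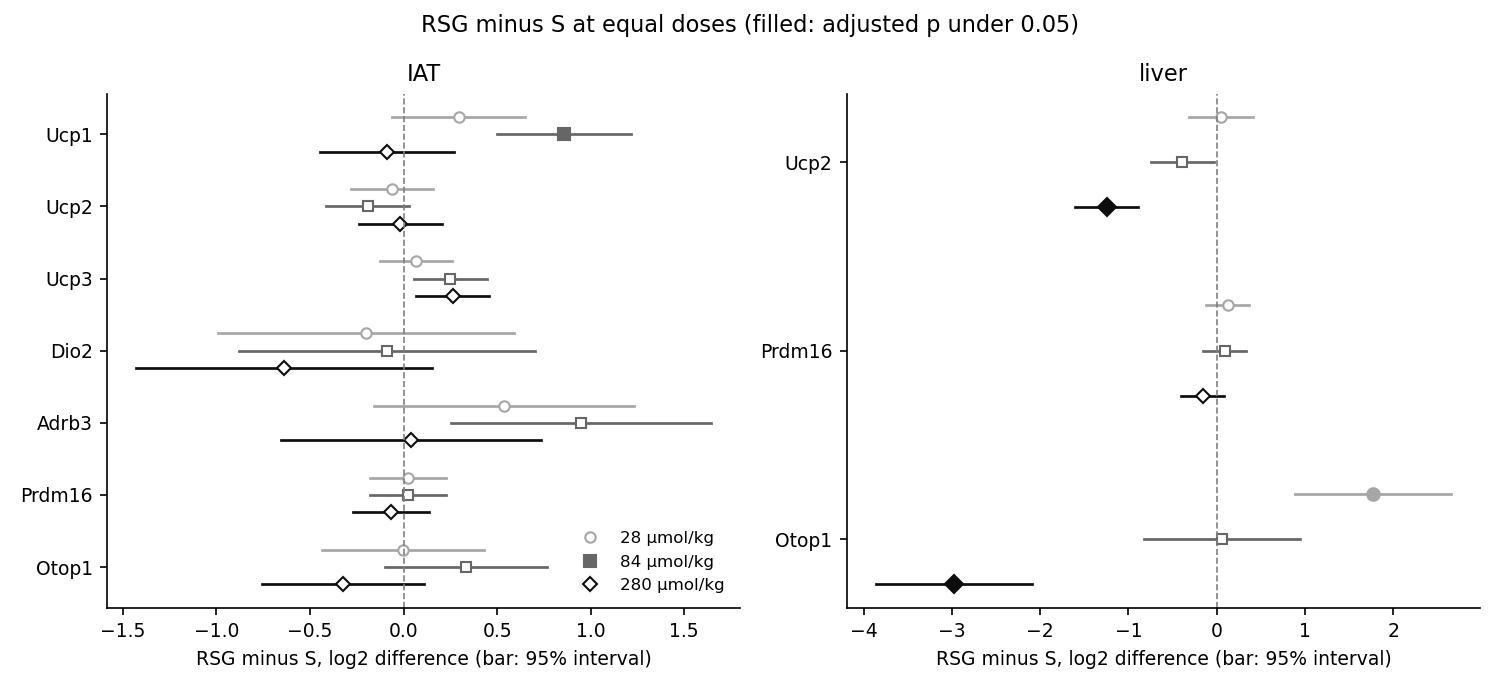
Difference of the RSG and S means (log2, points) with 95% intervals at 28 (circles), 84 (squares) and 280 µmol/kg (diamonds), for the genes tested in IAT (left) and liver (right), each panel with its own scale. Filled points had an adjusted p under 0.05: Ucp1 at 84 µmol/kg in IAT (0.86), and in liver Otop1 at 28 µmol/kg (1.77) and at 280 µmol/kg (-2.98) and Ucp2 at 280 µmol/kg (-1.25).

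In liver, Otop1 rose with both compounds at every dose, and its mean was highest with S at 280 µmol/kg. With RSG the lowest, median and highest mice were at 1.86, 2.44 and 3.94 at 28 µmol/kg, 1.44, 2.60 and 3.18 at 84 µmol/kg and 0.75, 1.75 and 3.11 at 280 µmol/kg. With S they were at 0.69, 0.87 and 1.32, then 1.18, 2.51 and 3.36, then 3.68, 4.53 and 6.26. RSG and S did not overlap at 28 or at 280 µmol/kg, in opposite order. Group means at 28, 84 and 280 µmol/kg were 2.72 ± 0.85, 2.51 ± 0.73 and 1.70 ± 0.86 for RSG (adjusted p = 4.7e-09, 2.5e-08 and 2.5e-05) and 0.95 ± 0.25, 2.46 ± 0.78 and 4.68 ± 1.00 for S (adjusted p = 0.010, 4.5e-08 and 8.7e-15). The Otop1 signal was low in liver, with medians of 113 in treated mice and 22.4 in the pool, and the pool was well above background on 12 of 72 arrays (1 to 4 of 12 in each group) and the treated channel on 67. With normexp background correction, whose offset of 50 exceeds the pool signal, the means were 0.51 to 0.70 for RSG and 0.11, 0.57 and 2.17 for S, and the call for S at 28 µmol/kg was lost (adjusted p = 0.60).

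Ucp2 was the only uncoupling protein tested in liver, and it rose. With RSG the lowest, median and highest mice were at 0.55, 1.03 and 1.3 at 28 µmol/kg, 0.50, 0.82 and 1.40 at 84 µmol/kg and -0.11, 0.77 and 1.02 at 280 µmol/kg. With S they were at 0.67, 0.91 and 1.18, then 1.07, 1.25 and 1.43, then 1.43, 1.80 and 2.50. All mice but 1 lay above the pool, and the S mice at 280 µmol/kg lay above every RSG mouse. The means were 1.94, 1.81 and 1.53-fold for RSG (adjusted p = 7.8e-08, 6.4e-07 and 1.2e-04) and 1.88, 2.37 and 3.64-fold for S (adjusted p = 3.5e-07, 6.1e-10 and 1.4e-14). Both channels were above background on all 72 arrays. The second Ucp2 probe gave means of 1.14, 1.17 and 0.53 for RSG and 0.99, 1.89 and 2.38 for S, all called, and the third was not tested in liver. With normexp the brightest probe gave lower means, of 0.38 to 0.50 for RSG and 0.49, 0.72 and 1.42 for S, all called.

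Prdm16 rose slightly in liver, by 0.34 ± 0.19, 0.40 ± 0.27 and 0.21 ± 0.23 on the log2 scale with RSG and by 0.21 ± 0.16, 0.30 ± 0.24 and 0.37 ± 0.15 with S. Its signal was low, with medians of 79 in treated mice and 65 in the pool. With normexp the means were 0.12, 0.11 and 0.09 for RSG and 0.04, 0.09 and 0.12 for S. The call for S at 28 µmol/kg was then lost (adjusted p = 0.33). The weakest calls, RSG at 280 µmol/kg (adjusted p = 0.035) and S at 28 µmol/kg (adjusted p = 0.039), were lost with no filter on dim probes (adjusted p = 0.055 and 0.061). They were also lost without any one of 4 RSG mice (replicates 1, 3, 4 and 6, adjusted p = 0.055 to 0.17) or 3 S mice (replicates 1, 4 and 5, adjusted p = 0.078 to 0.15). All 3 of 3 genes tested in liver, of which Otop1 had passed the filter only through the treated channel, were called higher in every group. The background there was 59.4, 57.7 and 51.9% of probes for RSG and 52.2, 55.3 and 66.9% for S, and at 280 µmol/kg 22.1% were called higher and 29.8% lower for RSG and 28.8 and 38.1% for S. The summed signal of adipocyte markers was also higher in the treated livers, at 264467 to 603334 at 280 µmol/kg RSG and 499873 to 745022 at 280 µmol/kg S. In the pool it was 189396 to 218760 and 224243 to 295329. In the median mouse the median marker stood at 0.75 with RSG and 0.20 with S on the log2 scale. Of 13 tested markers 10 were called with each compound, 9 with RSG and 7 with S higher and the others lower. Among them Cfd (6.75 with RSG and 4.99 with S), Cidec (3.84 and 3.42) and Fabp4 (3.71 and 5.6) stood far above the pool on the log2 scale, a choice made after their values were seen. Adipoq did not pass (-0.52 with both, adjusted p = 0.11 and 0.096), and Lep, a defining adipocyte marker, was above background on 0 of 72 liver arrays. At 280 µmol/kg S, epithelial markers were higher as well (summed signal 121903 to 229386, against 87396 to 110830 in the pool; 8 of 12 higher and 1 lower), where with RSG at that dose 2 were higher and 1 lower. Hepatocyte markers were lower there, 11 of 14 with S (2 higher) and 7 of 14 with RSG (4 higher). The part of these markers in the Otop1, Ucp2 and Prdm16 values was not tested.

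**Figure D4:**
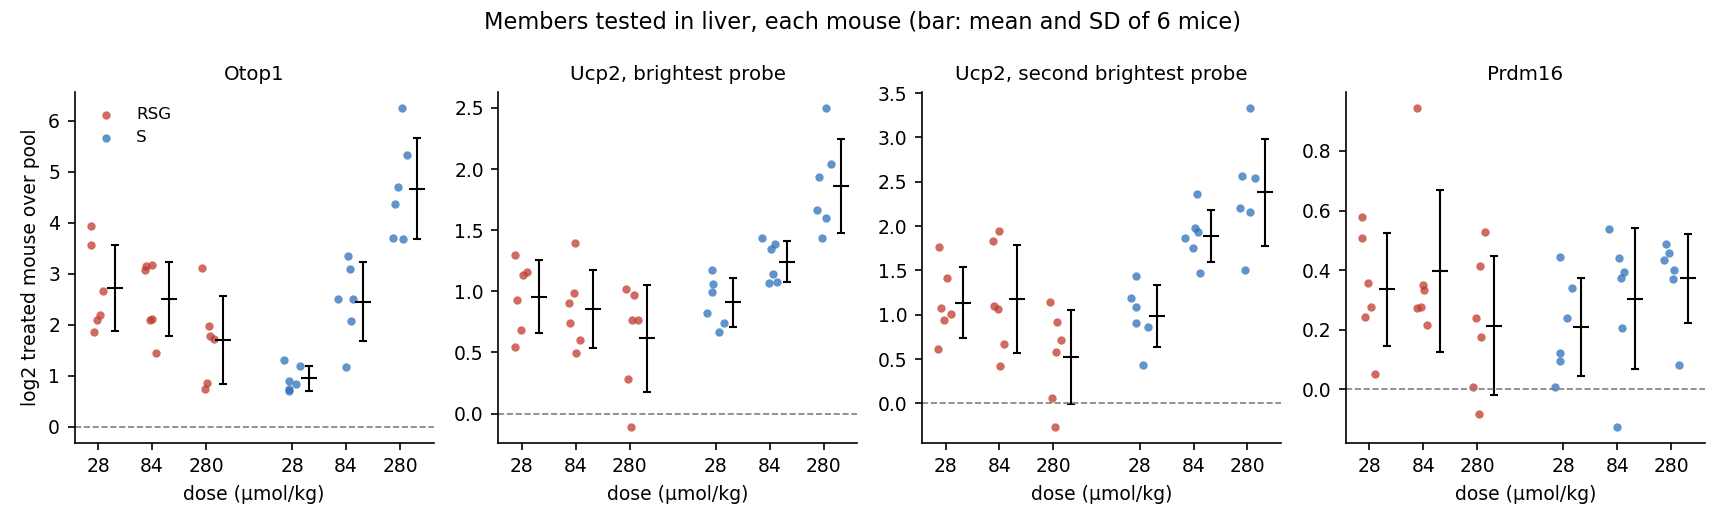
Log2 ratio of each liver mouse to the pool (points, 6 mice a dose) at 28, 84 and 280 µmol/kg of RSG (red, left) and S (blue, right), with mean and SD as bars and the pool as a dashed line at 0; each panel has its own scale. Otop1 averaged 1.70 with RSG and 4.68 with S at 280 µmol/kg, Ucp2 rose in both probes, and Prdm16 averaged between 0.21 and 0.40.

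The difference between RSG and S in liver was tested for 3 genes at each dose. At 280 µmol/kg the log2 ratio of Otop1 stood 2.98 lower with RSG than with S (95% interval -3.86 to -2.09, adjusted p = 4.1e-06) and that of Ucp2 1.25 lower (2.38-fold lower, interval -1.61 to -0.89, adjusted p = 2.6e-06), 2 of 3 genes against 28.6% of probes, and the second Ucp2 probe was 1.86 lower (adjusted p = 3.4e-06). Since the Otop1 pool was above background on 1 and 2 of 12 arrays in these groups, its size is uncertain, and with normexp the difference was -1.66 (adjusted p = 1.4e-06). On the only scan day that held both groups, with 2 mice each, Otop1 averaged 2.54 with RSG and 5.31 with S, and Ucp2 0.89 and 2.22. At 28 µmol/kg Otop1 was 1.77 higher with RSG (interval 0.89 to 2.66, adjusted p = 0.041), 1 of 3 genes against 0.915% of probes. That call was lost without any one of 10 of the 12 mice, all but RSG replicates 4 and 6 (adjusted p = 0.052 to 0.11), and with normexp the difference was 0.57 (adjusted p = 0.33). At 84 µmol/kg limma called 0 of 3 (1 at an unadjusted p under 0.05, background 1.86%), with intervals of -0.83 to 0.94 for Otop1 and -0.75 to -0.03 for Ucp2. Prdm16 was called at no dose.

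In liver, differences between doses were called in the S groups. Otop1 was 3.73 higher at 280 than at 28 µmol/kg S (adjusted p = 9.3e-08; 2.05 with normexp, adjusted p = 3.2e-08) and Ucp2 0.95 higher (adjusted p = 9.0e-05), 2 of 3 genes against 29.5% of probes. These groups shared no scan day, and with scan day as a fixed term Ucp2 was 0.87 higher (adjusted p = 0.064), which left 1 gene called. From 84 to 280 µmol/kg S the steps were 2.22 for Otop1 (adjusted p = 3.4e-04; 1.60 with normexp, adjusted p = 4.6e-06) and 0.62 for Ucp2 (adjusted p = 0.010), 2 of 3 genes against 21.3% of probes. From 28 to 84 µmol/kg S limma called 0 of 3 (1 at an unadjusted p under 0.05, background 0.0238%), with Otop1 1.5 higher (adjusted p = 0.65). For RSG it called 0 of 3 between 280 and 28 µmol/kg (1 at an unadjusted p under 0.05, background 0.0119%), and Otop1 was 1.02 lower at 280 µmol/kg (interval -1.91 to -0.14, adjusted p = 0.26).

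The response to 280 µmol/kg was set side by side in IAT and liver for the 3 genes tested in both, in 1 fit of 72 tissue samples. By the methods, both tissues were taken from the same mice. The fit treated the samples as independent, because the labels do not say which IAT and liver samples share a mouse. The median over all 24743 probes of IAT minus liver was 0.11 for RSG and 0.16 for S on the log2 scale. Otop1 with RSG changed by 0.96 more in IAT than in liver (adjusted p = 0.014), and with S by 1.69 less (adjusted p = 1.9e-05). Ucp2 changed less in IAT with both compounds, by -0.69 with RSG (adjusted p = 6.1e-05) and by -1.92 with S (adjusted p = 5.6e-18). Prdm16 differed by 0.22 with RSG (adjusted p = 0.075) and 0.13 with S (adjusted p = 0.28), and the RSG difference passed without IAT replicate 2 or liver replicate 4 or 6 (adjusted p = 0.0085, 0.027 and 0.045) and with the replicate number as a random block (adjusted p = 0.046). Both Prdm16 differences passed with normexp, at 0.29 each (adjusted p = 2.5e-04 for RSG and 2.0e-04 for S). With each mouse centred on its median the S difference was -0.002 (adjusted p = 0.99). The Prdm16 result thus depends on the processing. In each compound 2 of 3 genes were called, against 61.5% of probes for RSG and 73.6% for S. With normexp Otop1 turned to 0.52 higher in IAT with S (adjusted p = 0.037) and was 1.93 higher with RSG (adjusted p = 4.4e-11), and the RSG call on Otop1 was lost without liver RSG replicate 1 or 2 (adjusted p = 0.059 and 0.052).

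Other genes of brown adipocytes also rose in IAT. Of 19 genes listed for brown adipocyte fuel use and mitochondria, 16 were called higher and 0 lower at 280 µmol/kg RSG (median log2 ratio 0.90, against 0.04 over all probes), and 18 and 0 at 280 µmol/kg S (median 1.02, against 0.06). They included Elovl3, a fatty acid elongase, at 2.88 ± 0.48 with RSG and 3.26 ± 0.11 with S, the glycerol kinase Gk at 1.99 ± 0.47 and 2.36 ± 0.28, and Cpt1b, which brings fatty acids into mitochondria, at 1.57 ± 0.22 and 1.75 ± 0.32. Over all probes 37.1% were called higher and 29.8% lower with RSG, and 42.7 and 32% with S, which holds for the IAT lists below too. Between RSG and S at 280 µmol/kg limma called 0 of these 19 (background 1.57%), and 6 had an unadjusted p below 0.05. In liver 18 of them were tested, and 9 were higher and 4 lower with RSG (median 0.11) and 9 and 6 with S (median 0.21), where 22.1% of probes were higher and 29.8% lower with RSG and 28.8 and 38.1% with S. There Cidea, a lipid droplet protein, was at 3.71 ± 0.81 with RSG and 4.78 ± 0.25 with S, Elovl3 at 2.10 ± 0.41 and 1.78 ± 0.39, and the nuclear receptor Esrra fell by both (-0.28 ± 0.07 and -0.64 ± 0.11).

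**Figure D5:**
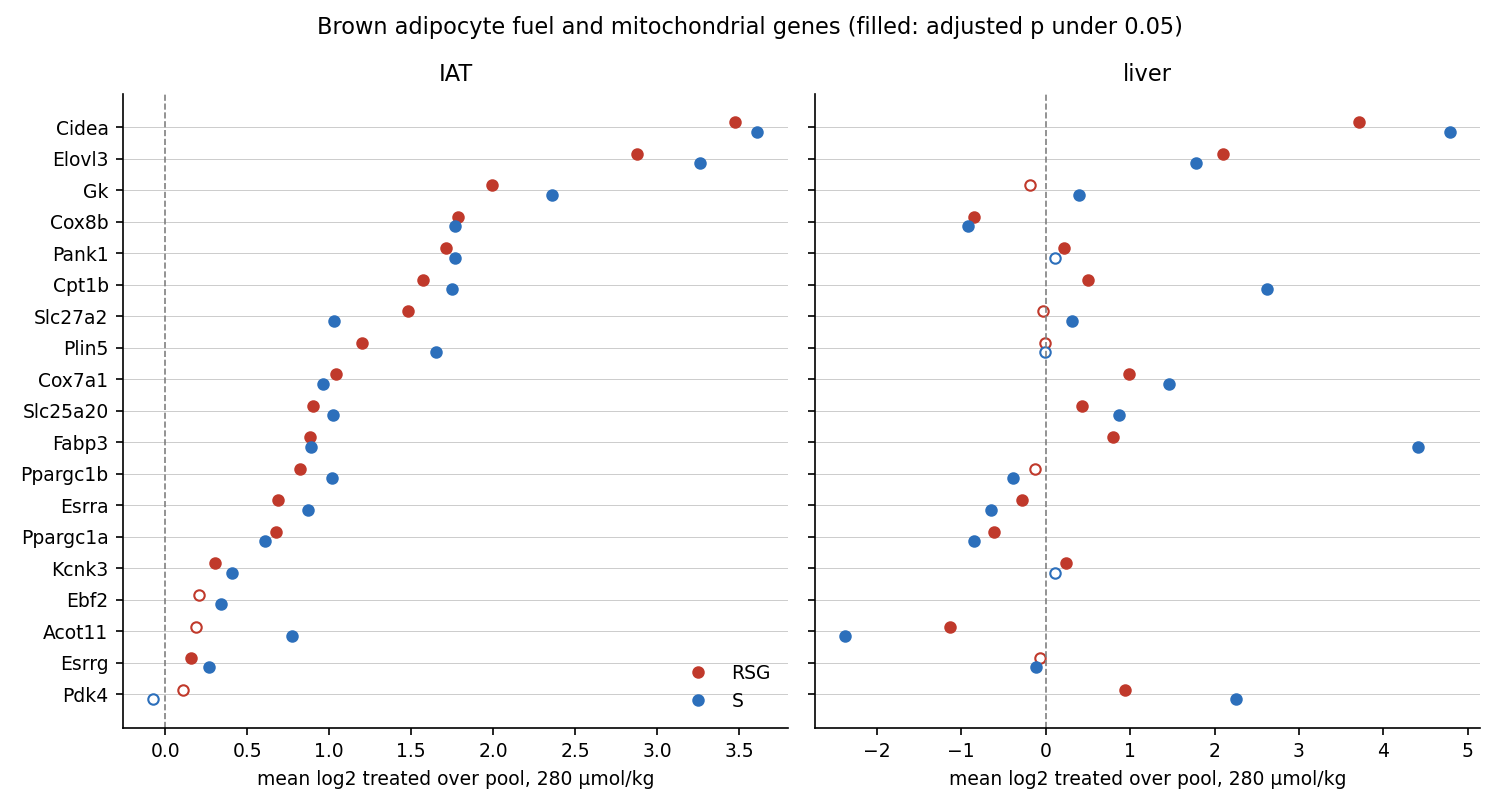
Mean log2 ratio to the pool of 19 genes for brown adipocyte fuel use and mitochondria at 280 µmol/kg RSG (red) and S (blue) in IAT (left) and liver (right); filled points had an adjusted p under 0.05, and genes not tested in a tissue have no point. In IAT 16 (RSG) and 18 (S) lay significantly above 0, while in liver 9 rose with each compound and 4 (RSG) and 6 (S) fell.

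In the neighbouring lists genes were called in both directions in IAT, as were probes in general. Among 16 tested lineage markers of brown and beige adipocytes, 4 rose and 7 fell with RSG and 6 and 7 with S, so more fell than rose. The genes named by their small p all rose and do not stand for the list. Shox2 stood at 1.40 ± 0.59 and 1.77 ± 0.37, Slc36a2 at 0.93 ± 0.44 and 1.12 ± 0.18 and Cited1 at 0.81 ± 0.27 and 0.57 ± 0.10. Among 25 genes of adrenergic and cAMP signalling, 10 rose and 7 fell with RSG and 14 and 7 with S, with the adenylyl cyclase Adcy5 (0.91 and 1.18), the lipase Pnpla2 (0.85 and 0.98) and its activator Abhd5 (1.07 and 1.41) higher and the receptor kinase Grk2 lower (-0.63 and -0.66). Of 10 genes of thyroid hormone action, 4 rose and 4 fell with each compound. Dio1, the other deiodinase that makes active hormone, had -1.94 ± 0.35 and -2.04 ± 0.33, the opposite direction to Dio2, and the hormone receptors Thra (-0.38 and -0.50) and Thrb (0.35 and 0.60) moved apart.

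Of 25 regulators of the brown fat programme other than the members, 5 rose and 13 fell with RSG and 7 and 12 with S, and Ppara, a nuclear receptor of fatty acid oxidation, was higher (1.56 and 1.62) while Plac8 (-2.50 and -2.40) and Ctbp1 (-0.23 and -0.23) were lower. Of 15 genes linked to heat production without UCP1, 1 rose and 12 fell with RSG and 1 and 13 with S; glycerol-3-phosphate dehydrogenase Gpd2 rose (1.59 and 1.76) and creatine kinase Ckb (-0.73 and -0.78) and the calcium pump inhibitor Pln (-2.25 and -2.51) fell. This list holds muscle genes, and most muscle markers were called lower in these groups as well. The part of the muscle markers in these values was not tested. Of 8 mitochondrial carriers related to the uncoupling proteins, 4 rose and 3 fell with RSG and 4 and 2 with S, among them the ADP/ATP carrier Slc25a5 (0.96 and 1.14) and the citrate carrier Slc25a1 (1.36 and 1.55). Of 13 secreted activators, 3 rose and 5 fell with RSG and 4 and 5 with S, with Fgf21 (0.91 and 1.41) and Nrg4 (0.52 and 0.47) higher and Metrnl (-0.93 and -0.70) lower.

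Genes with a profile like that of a member were sought over the 36 mice of a tissue, which share 1 pool and the same treatment groups. In IAT the log2 ratios of Ucp1 ran closest to those of Csl (Pearson r = 0.978), an expressed sequence tag with no gene name (0.974) and the mitochondrial cytochrome Cyc1 (0.972), among 21276 genes. Otop1 ran closest to Nabp1 (0.978), Atpaf2 (0.977) and BC003965 (0.976). Dio2 ran closest to Dtx4 (0.934), Eef1akmt1 (0.926) and E2f2 (0.902), and Prdm16 to Bcat1 (0.764), Med1 (0.755) and 3110009E18Rik (0.753). Adrb3 ran closest to N4bp2l1 (0.801), Mmab (0.800) and Usp40 (0.791), and Ucp3 to Kdr (0.673), Ccdc85b (0.644) and Gba2 (0.642). The best for Ucp2 in IAT was a probe without a gene name (0.795), followed by Arhgef6 (0.769) and Tcn2 (0.758). In liver, among 17830 genes, Ucp2 ran closest to Hadhb (0.919), an enzyme of fatty acid oxidation, Serinc2 (0.915) and 1300010F03Rik (0.910). Otop1 in liver ran closest to Ctse (0.896), Olfml2b (0.854) and Map1lc3a (0.847), and Prdm16 to Tfrc (0.596), Phkb (0.595) and Uxs1 (0.591). Between members the highest value was 0.927 in IAT, for Ucp1 and Otop1, and 0.749 in liver, for Otop1 and Ucp2. The lowest was -0.164 in IAT, for Ucp1 and Ucp2, and 0.188 in liver, for Ucp2 and Prdm16. Ucp1 and Dio2 had 0.468 in IAT.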

How the data were processed

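The deposited scanner files of Agilent 2-colour arrays were used. Per the file headers, the authors had subtracted the local background, normalised the dyes by lowess and written the LogRatio (log10 of Cy5 over Cy3) and processed signal intensity of each spot with Agilent Feature Extraction 9.5. Ratios were turned so that positive values mean higher in the treated mouse, converted to log2 and averaged over spots and over both dye orientations, without spots flagged as outliers. The mean of each group was tested against the pool, and groups against each other, with limma 3.58.1 in R 4.3.3 over the 36 mice of a tissue (72 samples for both tissues), with Benjamini-Hochberg adjustment over all probes tested and a threshold of 0.05. The fit was tested on simulated data. A gene was read by its brightest probe in the tissue, and other probes of the 7 genes are given too. From each gene list the 3 genes with the smallest p and the strongest in the minority direction were named. The members and lists were chosen with earlier results of these data known. Further liver hybridisations labelled as technical repeats (12 samples) stayed out of every test. The authors' deposited value table, on a log10 scale, served as an alternative, as did normexp with an offset of 50, other filters, weights, blocks by slide, scan day and replicate number, and leaving out each mouse. The number of arrays limits the precision.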

Additional observations from a re-analysis of the deposited data

Results flagged for a closer look

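Each probe in each group of 6 mice was examined for a mouse far from the others, and 8 of 78 such sets held one, where chance gives about 1 in 20. The sets share mice and genes that run together, so they are not independent and no excess over chance can be read from them. In IAT, replicate 2 of RSG at 280 µmol/kg stood low for Ucp1 (2.38, the others 3.40 to 3.54), Otop1 (1.55, the others 2.72 to 3.00) and Dio2 (-0.24, the others 2.00 to 2.67) on the log2 scale. Replicate 3 of RSG at 28 µmol/kg stood low for Ucp1 (0.64, the others 1.54 to 1.98) and Dio2 (0.20, the others 1.56 to 2.27). Ucp2 in replicate 2 of RSG at 28 µmol/kg stood high in IAT (0.50, the others -0.20 to 0.06). In liver, Prdm16 stood high in replicate 4 of RSG at 84 µmol/kg (0.94, the others 0.22 to 0.35) and low in replicate 4 of S at 280 µmol/kg (0.0808, the others 0.37 to 0.49).

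The response to 280 µmol/kg differed between IAT and liver by a test of the difference. IAT minus liver was 0.96 for Otop1 with RSG (adjusted p = 0.014) and -1.69 with S (adjusted p = 1.9e-05), which with normexp turned to 0.52 (adjusted p = 0.037). For Ucp2 it was -0.69 with RSG (adjusted p = 6.1e-05) and -1.92 with S (adjusted p = 5.6e-18), and by the second Ucp2 probe -0.64 (adjusted p = 0.015) and -2.45 (adjusted p = 2.1e-14).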

How the results depend on the processing

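Of 384 counts of called genes recomputed under other settings, 354 stayed within 1.5 times the reported count. With normexp, scan day as a fixed term, or an unadjusted p under 0.001 with a fold of at least 1.3, S at 28 µmol/kg in liver had 1 gene called in place of 3. RSG against S at 28 µmol/kg in liver had 0 in place of 1 with normexp, without a filter on dim probes, and with slide or scan day as a block, and 0 to 1 without single mice. S at 280 against 28 µmol/kg in liver had 1 with scan day fixed, and 280 against 84 µmol/kg had 1 with the mean of all probes or the p and fold rule. In IAT, scan day as a fixed term gave 3 for RSG at 28 µmol/kg, 3 for S at 84 µmol/kg (4 with the p and fold rule) and 0 for RSG against S at 84 µmol/kg. As a random block it gave 2 there, 1 for RSG against S at 280 µmol/kg and 4 for S at 280 against 84 µmol/kg. RSG at 84 against 28 µmol/kg had 1 with normexp, the value table or only the groups compared, and 280 against 84 µmol/kg 0 to 1 without single mice (1 without RSG 280 µmol/kg replicate 2). With only the groups compared, S at 280 against 28 µmol/kg had 5, and S at 84 against 28 µmol/kg had 1, as with weights, scan day as a random block or the p and fold rule. IAT minus liver had 5 (RSG) and 6 (S) without a filter, 1 for RSG with weights or the p and fold rule, and 1 to 2 without single mice. Reversed values were Otop1 for S in IAT minus liver, 0.52 with normexp (adjusted p = 0.037), and Ucp2 for RSG at 84 µmol/kg in IAT, 0.24 by the mean of all probes (adjusted p = 0.035). The cause was not tested.

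Within a tissue the replicate block changed no count. With it, Ucp1 in RSG against S at 84 µmol/kg in IAT was 0.86 (adjusted p = 0.0053) and Otop1 in RSG against S at 280 µmol/kg in liver -2.98. With replicate number as a random block across tissues, Prdm16 with RSG in IAT minus liver was 0.22 (adjusted p = 0.046, against 0.075 without it), which made 3 genes called in place of 2. Mice of the same number in different groups had a median correlation of 0.102 in liver and 0.13 in IAT, with the lowest at -0.291 and -0.523. For other numbers the medians were -0.0275 and -0.0297, and 10 and 6 of 36 samples correlated best with their own number. Mice of different groups are different animals, and what a shared number may mark across groups was not tested. Between IAT and liver of the same group and number the median was 0.138, against -0.0255 for other numbers. There 24 of 36 samples correlated best with their own number, a hint from the data that a number marks a mouse. In IAT no scan day held RSG and S of the same dose, and S at 280 µmol/kg could not be fitted with scan day as a fixed term. For 4 IAT samples the column of the deposited values followed another sample. Genes near background, Adrb3 in IAT and Otop1 in liver, are limited by their signal.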

Other observations

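The technical repeats in liver gave values that belong to no test. Otop1 read 2.36 to 4.03 in the 6 repeats of RSG at 28 µmol/kg (median 3.1) and 0.10 to 0.77 in the 6 repeats of S at 28 µmol/kg (median 0.63) on the log2 scale. These ranges did not overlap, but technical repeats are not further mice and add no support for a difference between the compounds. The Otop1 signal was also near background in the S repeats, at 22.1 to 55.0, against 14.6 to 33.8 in the pool on the same arrays. Ucp2 read 0.68 to 0.88 in the RSG repeats and 0.68 to 1.04 in the S repeats, and Prdm16 0.39 to 0.92 and -0.09 to 0.46.

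Among the brown adipocyte genes in liver, Fabp3, a fatty acid binding protein, stood at 0.79 with RSG and 4.41 with S at 280 µmol/kg (RSG minus S -3.62, adjusted p = 3.2e-10), and Cpt1b at 0.50 and 2.62 (RSG minus S -2.12, adjusted p = 3.6e-09). Both were chosen after their values were seen.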
